A study of Mus musculus with 31 samples.

Results

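A set of 9 genes of the myelin sheath and of the oligodendrocytes that make it were followed through 31 mouse brain RNA libraries. They are Mbp, Mog, Mag, Mobp, Cnp, Cldn11, Mal, Opalin and Ermn, taken by symbol from the deposited count table, which lists 48795 genes. All 9 passed the filter on low counts, with 400 counts or more in each library. The question was what exposure during development to deltamethrin does to transcription in the mouse brain. Deltamethrin is a pyrethroid, a class of insecticides that hold voltage-gated sodium channels open. RNA came from homogenised half-brain tissue and was read by total RNA sequencing. The control group holds 13 libraries and the deltamethrin group holds 18. No dose, vehicle, strain, genotype, sex, age, litter or batch is given in the labels used here, so none of these could enter a test, and nothing says whether the libraries come from separate animals. The p-values therefore measure the spread between these libraries.

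Oligodendrocytes wrap axons in stacked membrane, which insulates the axon and lets action potentials jump from node to node. They arise from dividing precursors, pass through a newly formed stage, and then switch on the genes for compact myelin, its adhesion proteins and its lipids. In mouse brain most of this happens after birth, and transcripts of mature myelin genes are among the most abundant of the tissue. Because each library is a homogenate, fewer oligodendrocytes and less RNA per oligodendrocyte cannot be told apart in any value below.

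Total counts ran from 17570311 to 35716869 in control and from 24563143 to 38680621 in deltamethrin. Control replicate 2 stood apart from the other libraries. It had the lowest total, and mitochondrial ribosomal RNA (the genes mt-Rnr1 and mt-Rnr2 summed) made up 40.2% of its counts, against 7.32 to 27.4% in the other 30. Several estimates that moved without this library are given with and without it. The genes of the neuronal, astrocyte and oligodendrocyte lists were all measured. So were those of the blood list, so this alone is no check of the brain label. Pmp2, a lipid-binding protein of peripheral myelin, had 0 counts in each library.

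All 9 genes were well expressed in both groups. Together they took 0.232 to 0.585% of all counts, and Mbp alone made up 61.4% of the 9 in the median library. Levels can be ranked between genes only per length, here as CPM (a gene's count scaled to a common library size, with TMM factors) per kilobase of merged exons. On that scale Mbp, the basic protein that holds the inner membrane faces together, had the highest median at 316.9 and its range (262.5 to 422.2) did not meet that of any other. Mobp, a second basic protein of compact myelin, followed at 133.2 CPM per kilobase and lay above Cnp, the next, in 31 of 31 libraries. Cnp, the enzyme CNPase of the cytoplasm-filled channels of myelin, had a median of 74.6, and Mal, a raft-associated membrane protein, had 63.8. Cldn11, the claudin of the tight junctions within the sheath, had 46.5, and Mog, a surface glycoprotein of the outermost layer, had 42.2. Mag, the adhesion glycoprotein of the membrane next to the axon, had 25.5. Ermn, a cytoskeletal protein of late maturation, had 14.98, and Opalin, a transmembrane protein of the sheath, had the lowest median at 9.86. From Mobp down, the ranges of neighbours in this order overlapped. Neighbours kept their order in 25 (Cldn11 over Mog) to 31 libraries, the last also for Mbp over Mobp and Mag over Ermn.

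None of the 9 genes separated deltamethrin from control libraries. By edgeR's quasi-likelihood test 0 of 9 had an adjusted p-value under 0.05, and 0 of 9 an unadjusted one. Over all 19529 genes tested, 4.37% had an unadjusted p-value under 0.05 (2% higher and 2.37% lower in deltamethrin), 0% an adjusted one, and 0% had group ranges that did not overlap. DESeq2 and limma voom also gave 0 of 9 on both counts. The median log2 fold change of the 9, deltamethrin over control, was -0.023, beside 0.0014 over all genes. Of the 9, 7 had a negative estimate and 2 a positive one, but without scaling factors 3 were negative and 6 positive, while the median of all genes moved to 0.043. In both of these fits 7 of the 9 lay below the median of all genes, and 5 did with cerebellar, striatal and brainstem list means as covariates.

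Mbp ranged from 2223 to 3352 CPM in control, with a median of 2793, and from 2258 to 3575 CPM in deltamethrin, with a median of 2604. The groups overlapped over nearly their whole range. Its means were 2736 ± 350.3 CPM (SD, n = 13 control) and 2721 ± 371.6 CPM (SD, n = 18 deltamethrin), a log2 fold change of -0.0078 ± 0.079 (SE) with a 95% interval of -0.16 to 0.15. The edgeR adjusted p was 0.984.

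Mog had the lowest unadjusted p-value of the 9. It ranged from 48.6 to 87.7 CPM in control (median 76.1) and from 40.01 to 89.2 CPM in deltamethrin (median 67.6). The lowest values, 40.01 and 40.9 CPM, were those of deltamethrin replicates 3 and 7, and the highest was that of deltamethrin replicate 10, so the deltamethrin group spanned the control group at both ends. Its means were 73.3 ± 10.9 CPM (SD, n = 13) and 66.1 ± 14.04 CPM (SD, n = 18). The estimate was a log2 fold change of -0.15 ± 0.10 (SE), with an interval of -0.34 to 0.048 (edgeR p = 0.148, adjusted 0.813), and 12 of 18 deltamethrin libraries lay below the control median.

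Opalin varied most from library to library. It ranged from 18.8 to 50.2 CPM in control (median 30.7) and from 13.3 to 51.9 CPM in deltamethrin (median 28.8), a 3.901-fold span over the 31 libraries. The 2 highest libraries were one of each group, control replicate 2 and deltamethrin replicate 10. The estimate was a log2 fold change of -0.12 ± 0.14 (SE), with an interval of -0.40 to 0.16 (edgeR adjusted p = 0.857). It was -0.049 without control replicate 2, -0.19 without deltamethrin replicate 10 and -0.040 with the means of the cerebellar, striatal and brainstem lists as covariates.

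Mag ranged from 56.0 to 153.7 CPM in control (median 106.4) and from 68.4 to 162.0 CPM in deltamethrin (median 100.05), with the lowest value in control replicate 2 and the highest in deltamethrin replicate 2. The estimate was a log2 fold change of -0.023 ± 0.12 (SE), with an interval of -0.27 to 0.22 (edgeR adjusted p = 0.969), and -0.081 without control replicate 2. Opalin and Mag had the widest intervals of the 9 and Ermn the narrowest.

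Mobp ranged from 712.1 to 1068 CPM in control and from 692.5 to 1381 CPM in deltamethrin. Its 4 highest libraries, deltamethrin replicates 10, 12, 8 and 2, lay above every control library, while 12 of 18 deltamethrin libraries lay below the control median. Its log2 fold change was 0.039 ± 0.091 (SE; edgeR adjusted p = 0.926), and 0.0090 without control replicate 2. Ermn, the other gene with a positive estimate, averaged 51.9 ± 5.78 CPM over the 13 control libraries and 54.1 ± 6.90 CPM over the 18 deltamethrin libraries (SD), a log2 fold change of 0.057 ± 0.064 (SE; edgeR adjusted p = 0.850). Cnp, Cldn11 and Mal had log2 fold changes of -0.015, -0.023 and -0.028, with edgeR adjusted p-values of 0.972, 0.952 and 0.945. Without control replicate 2 these 3 estimates were -0.058, -0.064 and -0.055, and the median of the 9 was -0.055. Cnp ran from 186.4 to 369.0 CPM over all libraries, Cldn11 from 59.6 to 115.9 and Mal from 128.1 to 246.4. Cnp shares 154 bases of exon with Dnajc7 on the opposite strand, Ermn shares 237 with Galnt5 on the opposite strand, and Mobp shares 79 with Gm38642 on its own strand. The use of strand in counting is not given in the sources used here, so some reads of Cnp could belong to Dnajc7. Galnt5 had 327 counts over all libraries together, fewer than Ermn had in any single library (486 or more).

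**Figure D1:**
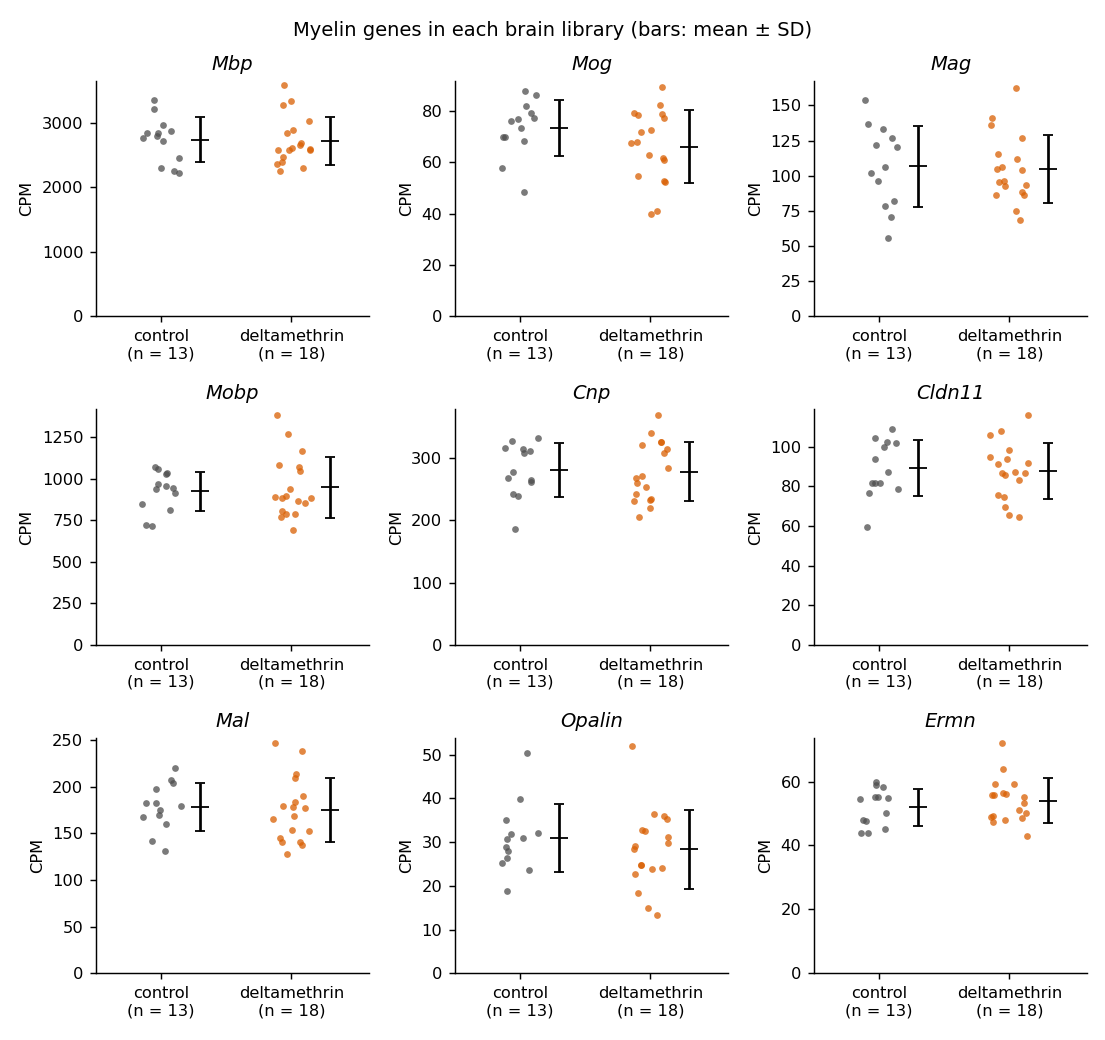
Level of each of the 9 myelin genes in CPM (vertical axis from 0) for 13 control and 18 deltamethrin libraries. Each point is 1 library and the bars show mean ± SD. The groups overlap for all 9 genes.

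How far a gene varied between libraries differed within the 9. The biological coefficient of variation, edgeR's estimate of spread within groups beyond counting noise, was 27.3% for Opalin and 24.0% for Mag, above those of 79.0% and 70.9% of all genes. It was 12.7% for Ermn and 14.8% for Mbp, and from 16.6 to 19.4% for the other 5. The median of the 9 was 17.5%, beside 18.3% over all genes tested.

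The 9 genes did not vary as one block. Over the 31 libraries the 36 pairs of genes had a median Pearson r of 0.511 between their log2 CPM values, and 34 were positive. These correlations are descriptions of libraries that share a preparation, and carry no p-value. Mag, Cnp and Cldn11 formed the tightest group. The r was 0.905 for Cnp with Cldn11, 0.894 for Mag with Cnp and 0.7999 for Mag with Cldn11 (Spearman rho 0.867, 0.882 and 0.757). Mog and Opalin formed another, with r = 0.884 (rho 0.813). The 6 pairs between these blocks had lower values, from r = -0.329 for Mag with Opalin (rho -0.336) to 0.296 for Mog with Cldn11. Mbp and Mobp lay between, with r = 0.754 for Mbp with Mobp and 0.789 for Mobp with Mal. Mal was nearer to Mog (0.759) and Opalin (0.630) than to Cldn11 (0.486), Cnp (0.360) and Mag (0.074). Within control alone, though, Mal had 0.705 with Cldn11 and 0.202 with Opalin. Ermn was nearer to Cldn11 (0.757), Cnp (0.697) and Mag (0.571) than to Mog (0.412) and Opalin (0.224).

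Within the blocks r was high in each group of libraries, while the pairs with Opalin differed most between them. Mag with Cnp had r = 0.968 in control and 0.850 in deltamethrin, and Mog with Opalin 0.784 and 0.918. Mag with Opalin had r = -0.623 in control and -0.160 in deltamethrin. Cnp with Opalin had -0.582 and 0.287, Cldn11 with Opalin -0.413 and 0.289, and Mobp with Opalin -0.108 and 0.669. Mag with Mobp went the other way, with 0.676 in control and -0.0019 in deltamethrin. For Mag with Opalin the control value without control replicate 2 was -0.380 and that over 30 libraries -0.200. That library had the lowest Cnp, Cldn11 and Mobp and the highest Opalin of the control group. The r of Opalin with Cnp, Cldn11 and Mobp was not recomputed without it, so these control values may rest partly on 1 library. Whether these correlations differ between the groups was not tested. The ratio of Mag to Opalin CPM shows how far the balance within the 9 moved: it was 1.11 in control replicate 2, 3.89 in the median library and 7.44 in deltamethrin replicate 1. The ratio ran from 1.11 to 6.48 in control and from 1.90 to 7.44 in deltamethrin, so the groups overlapped.

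**Figure D2:**
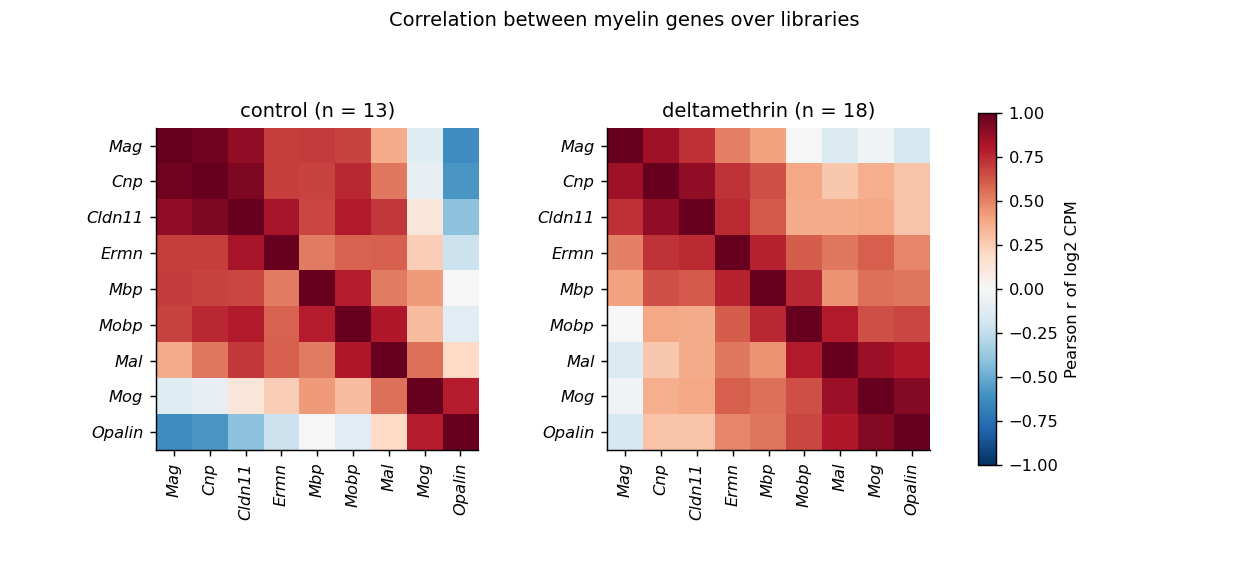
Pearson r between the log2 CPM values of each pair of the 9 genes, over the 13 control libraries (left) and the 18 deltamethrin libraries (right), on a colour scale from -1 to 1. Mag, Cnp and Cldn11 form a block of high r in both, and Mog and Opalin form another.

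The balance between the 2 blocks moved with the mitochondrial rRNA share of the library, which itself went with other measures of library content. This share was 7.32% in the lowest library and 40.2% in the highest, and its log2 value averaged 3.85 ± 0.68 over control and 3.77 ± 0.51 over deltamethrin libraries (SD). In an edgeR fit over all genes with group in the model, 55.5% of 19527 genes had a slope on the log2 share with an adjusted p-value under 0.05, 28.1% upward and 27.4% downward. Of the 9 myelin genes 5 did, a share near that background, 3 downward and 2 upward. The log2 share had r = -0.805 with Mag, -0.548 with Cnp, -0.467 with Cldn11, 0.753 with Opalin and 0.535 with Mog. The mean of the brainstem list had r = 0.794, 0.668, 0.515, -0.286 and -0.057 with these 5 genes. That list fell with the share, with a median slope of -1.72. Other measures also went with Mag and Opalin. The r was 0.782 and -0.766 for the list of axon and node partners of myelin, and 0.708 and -0.776 for the astrocyte list. For the log2 total count it was 0.587 and -0.582 (0.823 and -0.866 within control, 0.307 and -0.392 within deltamethrin). Which of these measures the genes followed was not tested, and they cannot be told apart here.

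Mag fell by 0.51 ± 0.068 on the log2 scale for each doubling of the share (edgeR adjusted p = 8.14e-08). Cnp fell by 0.22 ± 0.064 (adjusted p = 0.00322) and Cldn11 by 0.19 ± 0.066 (adjusted p = 0.0151) in the same edgeR fit. Opalin rose by 0.54 ± 0.082 (edgeR adjusted p = 9.83e-07) and Mog by 0.26 ± 0.074 (edgeR adjusted p = 0.00375). The other 4 did not pass, with edgeR slopes of 0.16 for Mal (adjusted p = 0.0711), 0.086 for Mobp, -0.042 for Mbp and -0.058 for Ermn. Within control alone the slope was -0.57 for Mag and 0.41 for Opalin, and within deltamethrin alone -0.43 and 0.69. Each of these 4 slopes had an edgeR adjusted p-value under 0.05. The other 3 genes passed in 1 group each. Cnp had -0.30 in control and -0.14 in deltamethrin (edgeR adjusted p = 0.00129 and 0.283), and Cldn11 -0.26 and -0.10 (edgeR adjusted p = 0.00717 and 0.418). Mog had 0.12 in control and 0.42 in deltamethrin (edgeR adjusted p = 0.273 and 0.00182). The test of whether a slope differs between the groups was passed by 5.99% of all genes and by 2 of the 9, Mobp and Mal, but by 0 genes without control replicate 2.

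Without control replicate 2, the library with the highest share, Cldn11 no longer passed (-0.13, edgeR adjusted p = 0.126). Mal and Mobp passed there with slopes of 0.26 (edgeR adjusted p = 0.00317) and 0.18 (edgeR adjusted p = 0.0464). Without scaling factors the median slope of all genes moved from 0.015 to -0.19, and the slopes of Mog (0.046, edgeR adjusted p = 0.666), Mobp (-0.12) and Mal (-0.042) then did not pass, the last 2 with the sign turned. Those of Mag (-0.71) and Opalin (0.33) kept their direction, and those of Mbp (-0.25) and Ermn (-0.26) then passed (edgeR adjusted p = 0.0027 and 0.000843).

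**Figure D3:**
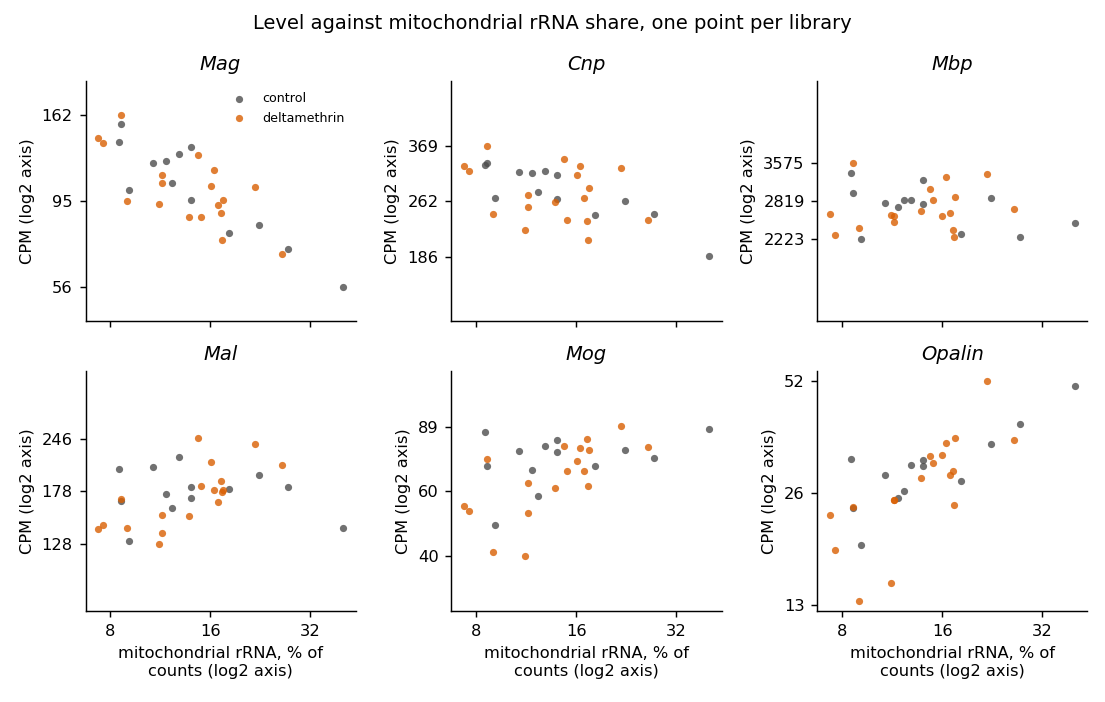
CPM of 6 myelin genes (log2 axis) against the percent of counts from mitochondrial rRNA (log2 axis), 1 point per library, grey for control and orange for deltamethrin. Mag and Cnp decline from left to right, Opalin and Mog rise, and the point at 40.2% is control replicate 2.

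**Figure D4:**
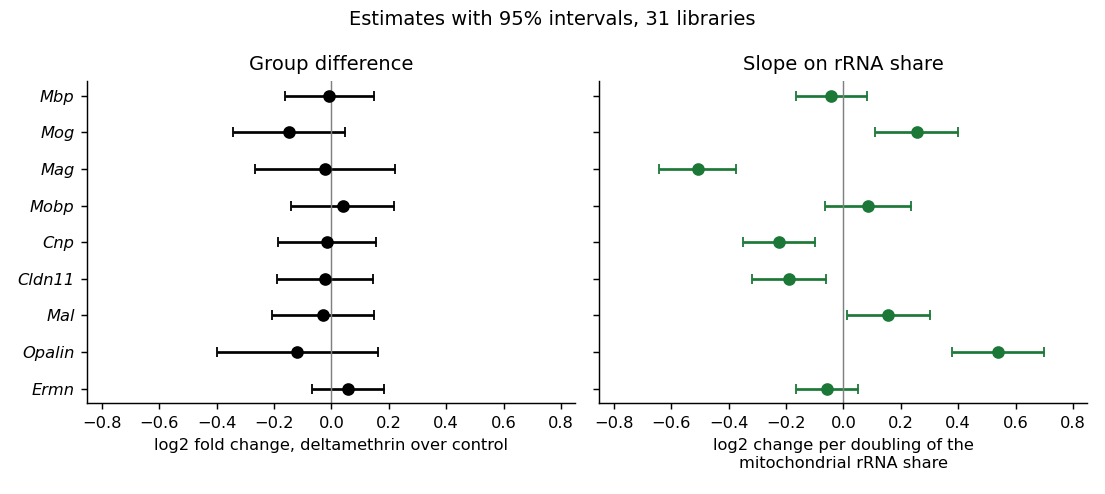
Estimates for the 9 genes with 95% intervals: left, the log2 fold change of deltamethrin over control; right, the log2 change per doubling of the mitochondrial rRNA share. All 9 intervals on the left include 0, while those of Mag and Opalin on the right lie on opposite sides of it.

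With the log2 share as a covariate 0 of 9 genes had an unadjusted p-value under 0.05 between deltamethrin and control, and the median log2 fold change was -0.029. Markers of brain regions were also read beside the comparison, and their part in it was not tested beyond the covariate fit. The cerebellar list had a median log2 fold change of 0.26 with 9 of 9 higher, the brainstem list 0.25 with 6 of 7 higher, and the striatal list -0.16 with 8 of 8 lower. In these 3 lists 0 genes had an unadjusted p-value under 0.05. With the means of these 3 lists as covariates 0 of 9 myelin genes had an unadjusted p-value under 0.05 and their median was -0.0061. The cortical list had a median of -0.035 (5 of 8 lower, turning to 0.0073 without scaling factors), with 0 genes under 0.05. The thalamic list had 0.039 (4 of 6 higher), with Ramp3 at -0.23 and an unadjusted p of 0.0422 by edgeR.

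Over libraries the mean log2 CPM of the 9 had r = 0.483 with the striatal list (rho 0.494) and -0.500 with the cortical list (rho -0.438). These were 0.126 and -0.257 within control and 0.686 and -0.693 within deltamethrin, and 0.476 and -0.524 without the 2 libraries farthest from the median of each list. With the log2 mitochondrial rRNA share the mean had r = 0.015 (rho 0.029), but -0.452 within control and 0.346 within deltamethrin. It was 0.183 once control replicates 2 and 7, which lay farthest out, were dropped, and -0.477 without scaling factors.

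For Mobp, Mag and Opalin, the stretch from 250 to 51 bases before the start was taken from the RefSeq promoter table (GRCm38.p6), where 8 of the 9 genes matched and Mbp did not. Capitals mark ACAAAG or its reverse complement CTTTGT, a core sequence bound by SOX proteins, the family of the oligodendrocyte factor SOX10. Mobp is shown for its repeats, and Mag (the first of its 3 windows in the table) and Opalin because they had the steepest opposite slopes. Mobp lies at chr9:120149492-120149691 (plus strand), Mag at chr7:30914914-30915113 (minus strand) and Opalin at chr19:41077164-41077363 (minus strand).
Mobp: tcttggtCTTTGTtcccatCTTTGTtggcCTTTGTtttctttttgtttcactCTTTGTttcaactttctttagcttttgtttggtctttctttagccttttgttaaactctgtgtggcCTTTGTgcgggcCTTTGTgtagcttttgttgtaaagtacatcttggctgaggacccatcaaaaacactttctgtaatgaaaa
Mag: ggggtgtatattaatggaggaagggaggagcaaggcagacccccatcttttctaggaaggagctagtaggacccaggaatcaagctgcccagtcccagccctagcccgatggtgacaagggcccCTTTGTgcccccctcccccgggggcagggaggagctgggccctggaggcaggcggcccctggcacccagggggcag
Opalin: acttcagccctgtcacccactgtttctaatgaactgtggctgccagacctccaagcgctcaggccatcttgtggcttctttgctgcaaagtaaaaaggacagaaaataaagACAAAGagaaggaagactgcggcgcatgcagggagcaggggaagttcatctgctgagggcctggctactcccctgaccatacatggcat

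Mobp held 6 copies of CTTTGT in its 250 bases, all inside the stretch shown and in that orientation, while Mag, Cnp and Opalin held 1 of either form. Mog, Cldn11, Mal, Ermn and the third Mag window held 0. Of 32851 RefSeq promoter windows of 250 bases, 16.5% held ACAAAG on either strand and 1, that of Mobp, held as many as 6. ACAATG, another SOX core, was found in Ermn among the 8 genes and in 10.7% of all windows. The E-box letters CATCTG were found in Opalin and in 14.4% of all windows, and CAGCTG in 0 of 8 genes and 13.001% of windows. Motifs were searched on both strands and each was counted on its own. Mag and Opalin, which moved apart with the rRNA share, each held 1 ACAAAG match, and a match of this kind describes letters, not binding.

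The genes whose pattern was most like that of the 9 were found by the Pearson r of each other gene with the mean standardised level of the 9 over 31 libraries. The 8 highest were Apod (r = 0.858), Carhsp1 (0.850), Prr18 (0.819), Il33 (0.804), Bcas1 (0.801), Gatm (0.799), Adssl1 (0.776) and Arsg (0.776). Apod encodes a lipid-binding apolipoprotein, Bcas1 a protein of newly myelinating oligodendrocytes, Il33 a nuclear cytokine and Gatm the first enzyme of creatine synthesis. For these 8 the r was 0.754 to 0.922 in control and 0.754 to 0.880 in deltamethrin. The 3 lowest were Trhde (-0.723), Unc13b (-0.720) and Gm37728 (-0.720). Of the 50 most alike, 7 were on the list of 34 other myelin genes, 1 each on the newly formed, transcription factor and striatal lists, and 40 on no list. The 9 genes themselves had r from 0.492 (Opalin) to 0.840 (Mbp) with their own mean, and Opalin had -0.072 within control.

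The wider oligodendrocyte lineage gave the same picture between the groups, with 0 genes at an adjusted p-value under 0.05 in any list. Of 34 other myelin and mature oligodendrocyte genes, 13 had positive and 21 negative estimates, with a median log2 fold change of -0.018 that became 0.013 without scaling factors. By the rule for naming genes, Gal3st1 and Gjc3 were the 2 of 34 with an unadjusted edgeR p-value under 0.05, beside 4.37% of all genes. Gal3st1, which makes sulfatide from galactocerebroside, had 17.1 ± 3.53 CPM in control and 14.6 ± 3.04 in deltamethrin, a log2 fold change of -0.23 ± 0.10 (edgeR p = 0.0317, adjusted 0.813). Gjc3, an oligodendrocyte gap junction protein, had means of 34.9 ± 4.21 and 39.1 ± 6.36 CPM, with an estimate of 0.16 ± 0.074 (edgeR p = 0.0332, adjusted 0.813). Neither kept an unadjusted p-value under 0.05 without scaling factors (edgeR p = 0.0617 and 0.0674), and Gal3st1 did not with the regional covariates either (edgeR p = 0.0695). Both kept it with the rRNA share as covariate (edgeR p = 0.0126 and 0.0201). In that fit 4 of the 34 genes had an unadjusted p-value under 0.05, beside 1796 of all 19529.

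Earlier stages of the lineage had positive medians. The 12 precursor genes had a median log2 fold change of 0.092, with 10 of 12 positive and 1 at an unadjusted p-value under 0.05. That 1 was Ptprz1, a receptor phosphatase that astrocytes also express, with 111.1 ± 18.6 CPM over control libraries, 137.4 ± 52.3 CPM over deltamethrin libraries (SD) and a log2 fold change of 0.31 ± 0.15 (edgeR p = 0.0423, adjusted 0.813). Its p was 0.0919 by limma voom and 0.0642 by edgeR with the rRNA share as covariate. The 10 committed and newly formed genes had a median of 0.033 and the 10 transcription factors, among them Sox10, Olig2 and Myrf, 0.052. In both lists 0 genes had an unadjusted p-value under 0.05. The mean log2 CPM of the precursor list was 5.32, 5.29, 5.16 and 5.04 in deltamethrin replicates 1, 2, 7 and 3, above the highest control value of 4.93. The other deltamethrin libraries lay within the control range. With the rRNA share as covariate the medians of the 3 lists were 0.052, 0.028 and 0.042. With the 3 regional lists as covariates they were 0.053, 0.0044 and 0.026. In that fit 0 of 12 precursor genes and 1 of 10 transcription factors had an unadjusted p-value under 0.05, beside 698 of all 19529 genes. The transcription factor list also had 1 such gene with upper quartile factors, without scaling factors and with the share covariate. Over all 19529 genes these fits had 843, 713 and 1796 such genes.

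Cholesterol, the main sterol of myelin, is made in the tissue. The 22 genes of its synthesis and uptake had a median of 0.0087, with 13 positive, 9 negative and 0 at an unadjusted p-value under 0.05. The median turned to -0.011 with the rRNA share as covariate and to -0.025 with the regional covariates. In the regional fit 2 of the 22 genes had an unadjusted p-value under 0.05, beside 698 of all 19529. The 11 axonal and nodal partners of myelin, such as the neurofilaments and the paranodal protein Cntnap1, had a median of 0.085 with 11 of 11 positive and 0 under 0.05. They carried steep slopes on the mitochondrial rRNA share, with a median of -0.55 and 11 of 11 downward at an edgeR adjusted p-value under 0.05. With the share as a covariate their median group difference was 0.032, with 10 of 11 positive, and with the regional covariates 0.015, with 7 of 11 positive.

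**Figure D5:**
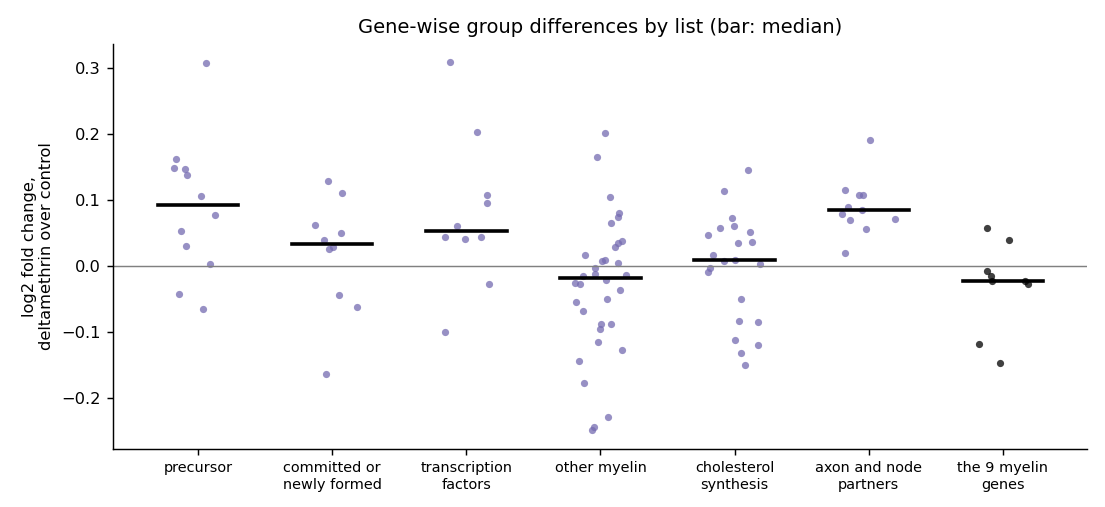
Log2 fold change of deltamethrin over control for each gene (points) of 6 lists of the oligodendrocyte lineage and its partners and for the 9 myelin genes, with the median of each list as a bar. The precursor and axonal lists have medians of 0.092 and 0.085, and the 9 myelin genes -0.023.

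Slopes on the mitochondrial rRNA share were read in the other lists too. Among the 34 other myelin genes 10 rose and 14 fell with the share, beside 28.1% and 27.4% of all genes. Gal3st1 rose by 0.32 on the log2 scale per doubling (edgeR adjusted p = 0.000135). The other lists of the lineage went mostly one way, as did several lists outside it. Of the 10 transcription factors 6 fell and 0 rose, with slopes of -0.67 for Myrf, -0.46 for Sox10 and -0.33 for Olig2 (edgeR adjusted p-values of 4.96e-11, 1.97e-06 and 8.41e-05). Myrf and Sox10 are among the factors that switch on myelin genes. Their downward slopes went the same way as that of Mag and the opposite way to that of Opalin. Whether these factors bear on the slopes of the myelin genes was not tested. Of the 12 precursor genes 9 fell and 1 rose, and of the 22 cholesterol genes 12 fell and 1 rose. Outside the lineage, 9 of 10 astrocyte, 7 of 8 neuron and 7 of 7 brainstem genes fell and 0 rose, while 5 of 5 blood genes rose. A downward slope was therefore not particular to the oligodendrocyte lists.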

How the data were processed

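Total RNA of 31 brain libraries was analysed from the raw count table that the authors deposited, in whole counts per Ensembl gene without normalization. Per the submitters' processing notes the build was GRCm38, with Trimmomatic, HISAT2, SAMtools and MultiQC; the counter, annotation and use of strand are not given in the sources used here. Groups come from the agent label, and replicate numbers only name libraries. No 2 libraries agreed within sampling noise (smallest chi-square per degree of freedom 6.38 over 465 pairs).

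Genes were kept by filterByExpr (minimum count 10, minimum total 15), scaled by TMM and compared with edgeR 4.0.16 (R 4.3.3; quasi-likelihood F-test without covariates, robust=TRUE, Benjamini-Hochberg over all genes tested). SEs were taken as the estimate over the root of its F, intervals are 1.96 SE either side, and a prior count of 2 was used for log2 CPM. Exon lengths and overlaps come from GENCODE M21. The members and lists were chosen with earlier results of these data known. The fit on the log2 mitochondrial rRNA share (group in the model, the 2 rRNAs not tested) and its alternatives were added after seeing the data.

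Genes named beyond the 9 were up to 2 higher and 2 lower per list with the smallest unadjusted p-values under 0.05, and the 8 most and 3 least alike genes. Myrf, Sox10, Olig2 and Pmp2 were named after their values were seen. Alternatives were other scaling factors, count filters, DESeq2 1.42.0, limma 3.58.1 (voom), robust=FALSE, covariates, protein-coding genes alone, and each library left out in turn. The pipeline was tested on simulated data. The kinomics of the split samples were not analysed here. Some results for listed genes are not reported here.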

Additional observations from a re-analysis of the deposited data

Results flagged for a closer look

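The slope on the log2 mitochondrial rRNA share differed between the groups for 2 of the 9 genes, by the test of the group-by-share term in edgeR. The slope of Mobp was higher in deltamethrin than in control by 0.43 ± 0.13 (SE; edgeR adjusted p = 0.0478), from -0.12 in control to 0.31 in deltamethrin. That of Mal was higher by 0.43 ± 0.13 (edgeR adjusted p = 0.0403), from -0.049 to 0.38. Over all genes 5.99% passed this test. Without control replicate 2 the differences were 0.33 (edgeR adjusted p = 0.204) and 0.31 (edgeR adjusted p = 0.207), and 0 of 19621 genes passed.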

How the results depend on the processing

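Of the 9 genes, 0 had an unadjusted or an adjusted p-value under 0.05 between the groups, whichever of 11 alternatives was used and whichever of the 31 libraries was left out. Their median ran from -0.029 to 0.0065 under the alternatives and from -0.055 to 0.0087 with 1 library left out. Estimates near 0 changed sign: without scaling factors Mbp was 0.026, Cnp 0.011, Cldn11 0.0065 and Mal 0.0043, where the median of all genes was 0.043. Mbp was 0.00041 without a count filter, Mag 0.017 with limma voom, and Mal 0.018 with the 3 regional covariates; for these estimates the cause was not tested. With 1 library left out the estimates ran from -0.030 to 0.023 for Mbp, -0.081 to 0.038 for Mag, -0.00077 to 0.066 for Mobp, -0.058 to 0.013 for Cnp, -0.064 to 0.0084 for Cldn11 and -0.059 to 0.00063 for Mal. Mog (-0.18 to -0.11), Opalin (-0.19 to -0.049) and Ermn (0.033 to 0.081) kept their sign in all of these fits.

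The number of genes with a slope on the mitochondrial rRNA share was 5 and ran from 5 to 6 under other scalings and with 1 library left out. Without scaling factors the slopes of Mobp (-0.12) and Mal (-0.042) turned. The median pair correlation of 0.511 became 0.714, and the r of the mean of the 9 with the share went from 0.015 to -0.477. In that setting CPM is taken over all counts, the rRNA included. Of the slopes called over all genes 80.9% were then downward, against 49.4% with TMM factors. Whether this bears on the values of the 9 was not tested. No paired analysis was possible because numbers were given in accession order and the labels name no shared animal, litter or day. At 400 counts or more per library, counting error was small beside the spread between libraries.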

Other observations

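Beside the central myelin genes, 5 of 7 peripheral myelin genes passed the count filter. Prx, the periaxin of Schwann cells, averaged 0.756 ± 0.265 CPM over control and 1.01 ± 0.279 CPM over deltamethrin libraries (SD), a log2 fold change of 0.40 ± 0.17 (edgeR p = 0.0231, adjusted 0.813). Cldn19, the claudin of Schwann cell junctions, had means of 0.262 ± 0.131 and 0.446 ± 0.216 CPM, with an estimate of 0.70 ± 0.26 (edgeR p = 0.0101, adjusted 0.813). Both are at very low levels, and the list's median was -0.010, which was 0.028 without scaling factors.

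Of the other cell types, the astrocyte list had a median log2 fold change of 0.0996 with 10 of 10 positive and the neuron list 0.022 with 6 of 8, and in both 0 genes had an unadjusted p-value under 0.05. The neuron median turned to -0.0097 with the mitochondrial rRNA share as covariate and to -0.0031 with the regional covariates. The endothelial list had 0.10 with 8 of 10 positive, and its claudin Cldn5 had 0.21 ± 0.067 (edgeR p = 0.00407, adjusted 0.813). The microglial list had -0.0065 with 5 of 10 negative (0.0020 with upper quartile factors, 0.026 without factors and 0.042 with the regional covariates), and Tmem119 had -0.15 ± 0.058 (edgeR p = 0.0117, adjusted 0.813). The choroid plexus list had -0.11 with 9 of 10 negative, with Ttr at -0.46 ± 0.21 (edgeR p = 0.0360) and Folr1 at -0.49 ± 0.20 (edgeR p = 0.0163), each adjusted 0.813. Its median was -0.037 with 6 of 10 negative without scaling factors, and -0.055 with 0 genes under 0.05 with the regional covariates. The 5 blood genes had a median of -0.29, with 5 of 5 negative and 0 under 0.05.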
